A study of Mus musculus with 12 samples.

Results

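The cytochrome P450 genes of families 1 to 4 were examined in mouse livers with and without hepatocyte growth factor (HGF) and with and without its receptor Met. The members were all probe sets whose single platform symbol begins with Cyp, a digit from 1 to 4, a letter and a number. There were 51 of them among 16475 probe sets, 1 per gene. The rule uses symbols and no measured value, though it was chosen with earlier results of these data known. The arrays came from 12 livers, 3 per group. Knockout (MKO) mice had Met loxP alleles and a Cre transgene under the albumin promoter (Alb-Cre), which acts after birth, or under albumin and AFP regulatory sequences (Alfp-Cre), which acts before birth. Which transgene each knockout array represents is not given in the labels, and Met is removed only from cells in which these promoters are active. Control (CTRL) mice carried the Met loxP alleles in both copies. The 4 groups were knockouts with HGF, knockouts without HGF, controls with HGF and controls without HGF. HGF was 2 µg of the recombinant mouse protein, given 2 h before sampling. The protocol leaves unclear whether the unstimulated mice had received a saline injection. Age, sex and strain are not given in the labels used here. The labels speak of 3 animals per group, so the p-values below measure the spread between animals.

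Cytochromes P450 are haem enzymes of the endoplasmic reticulum that insert an oxygen atom into their substrates, with electrons passed from NADPH by cytochrome P450 oxidoreductase. In hepatocytes, members of families 1 to 3 oxidise drugs, pollutants, steroids and bile acids, and members of family 4 oxidise fatty acids at the end of the chain. Their genes are known targets of the aryl hydrocarbon receptor, of the nuclear receptors CAR and PXR and of PPAR-alpha. Expression of many of them is known to be lower in livers exposed to inflammatory cytokines.

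Some arrays stood apart from their group. Correlations between arrays were 0.914 to 0.992. The 15 inflammatory cytokine target genes tested, 15 of 17 on the array, had mean log2 signals of 5.80, 4.33 and 8.69 in knockouts with HGF, 4.91, 9.11 and 4.41 in knockouts without HGF, 8.85 to 9.58 in controls with HGF and 4.15 to 4.58 in controls without HGF. The knockout replicate 2 without HGF thus had a high level and the knockout replicate 2 with HGF a low one, against the order in the controls, and the knockout replicate 3 with HGF was high as well. Whether the 2 replicate 2 arrays were exchanged was not tested, and the labels were kept as given; an exchange would alter every value that rests on them. Results that rest on knockouts are therefore given with and without the replicate 2 arrays wherever that changes a call. The Met probe set itself had log2 signals of 6.61, 7.40 and 6.29 in knockouts with HGF, 7.06, 6.68 and 7.18 in knockouts without HGF, 6.59, 6.78 and 7.02 in controls with HGF and 6.62, 6.84 and 6.77 in controls without HGF. These overlap, and whether its probes lie in the deleted part was not analysed here, so the Met signal does not check the genotype labels. Array numbers run from 1 to 6 in controls and from 7 to 12 in knockouts, so genotype and array order cannot be told apart. The male-specific transcript Eif2s3y was at 7.05 to 7.84 and Xist, which is transcribed from the inactive X chromosome, at 1.94 to 2.11 on all 12 arrays. Summed intensities of 15 hepatocyte markers were 183370 to 186893 in knockouts with HGF, 183007 to 184473 in knockouts without HGF, 185797 to 191366 in controls with HGF and 191074 to 191823 in controls without HGF. The 7 cholangiocyte markers on the array stayed below the filter. In bulk liver, fewer cells of a type and less RNA per cell cannot be told apart.

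Of the 51 genes, 32 passed the filter, a log2 signal of at least 4 on at least 3 arrays, and 19 did not. All values below are log2(intensity + 1), and a signal of 1 gene is not set against that of another, since probe sets differ in brightness. The genes that passed were 7 of 8 in Cyp2c, 5 of 7 in Cyp2d, 4 of 5 in Cyp3a, 3 of 5 in Cyp2j, 3 of 4 in Cyp4a, 3 of 7 in Cyp4f and 1 of 2 in Cyp1a, with Cyp2a12, Cyp2e1, Cyp2f2, Cyp2r1, Cyp4b1 and Cyp4v3 as the tested genes of their subfamilies. Below the filter were Cyp1a1, which the aryl hydrocarbon receptor induces strongly, and Cyp1b1, the 4 Cyp2b genes Cyp2b9, Cyp2b10, Cyp2b13 and Cyp2b19, Cyp2c39, Cyp2d12, Cyp2d34, Cyp2j11, Cyp2j13, Cyp2s1, Cyp2u1, Cyp3a16, Cyp4a31, Cyp4f16, Cyp4f18, Cyp4f39 and the pseudogene Cyp4f41-ps. Their values on single arrays reached 3.98 at most, apart from Cyp2b10, a CAR target, which reached 4.81 on the control replicate 1 without HGF. Cyp2b10 had 3.26, 2.82 and 3.35 in knockouts with HGF, 2.60, 3.07 and 3.29 in knockouts without HGF, 3.67, 2.73 and 2.98 in controls with HGF and 4.81, 3.01 and 3.57 in controls without HGF. Just inside the filter stood Cyp2j9, a relative of fatty acid epoxygenases, with a mean of 4.32 over 12 arrays, while the highest mean below it was 3.62. The array covers 49 of the 79 protein-coding genes of these families in RefSeq, among them 8 of 15 Cyp2c, 5 of 9 Cyp3a, 4 of 8 Cyp4a and 6 of 9 Cyp4f genes. Close relatives such as Cyp2c37, Cyp2c50 and Cyp2c54, or the Cyp4a and Cyp3a genes, may share probe sequence, so their signals are uncertain as measures of 1 gene.

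Signals of the tested genes moved little over the 12 arrays: 23 of 32 had a range under 1 log2 unit and 11 of them under 0.5. Cyp2e1, which oxidises ethanol and acetaminophen, stayed between 13.64 and 13.89. Cyp3a11, a main drug-oxidising enzyme of mouse liver and a PXR target, stayed between 13.15 and 13.36. The widest range, 3.21, was that of Cyp2c55, an arachidonic acid hydroxylase. Next came Cyp2c38 with 1.67.

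**Figure D1:**
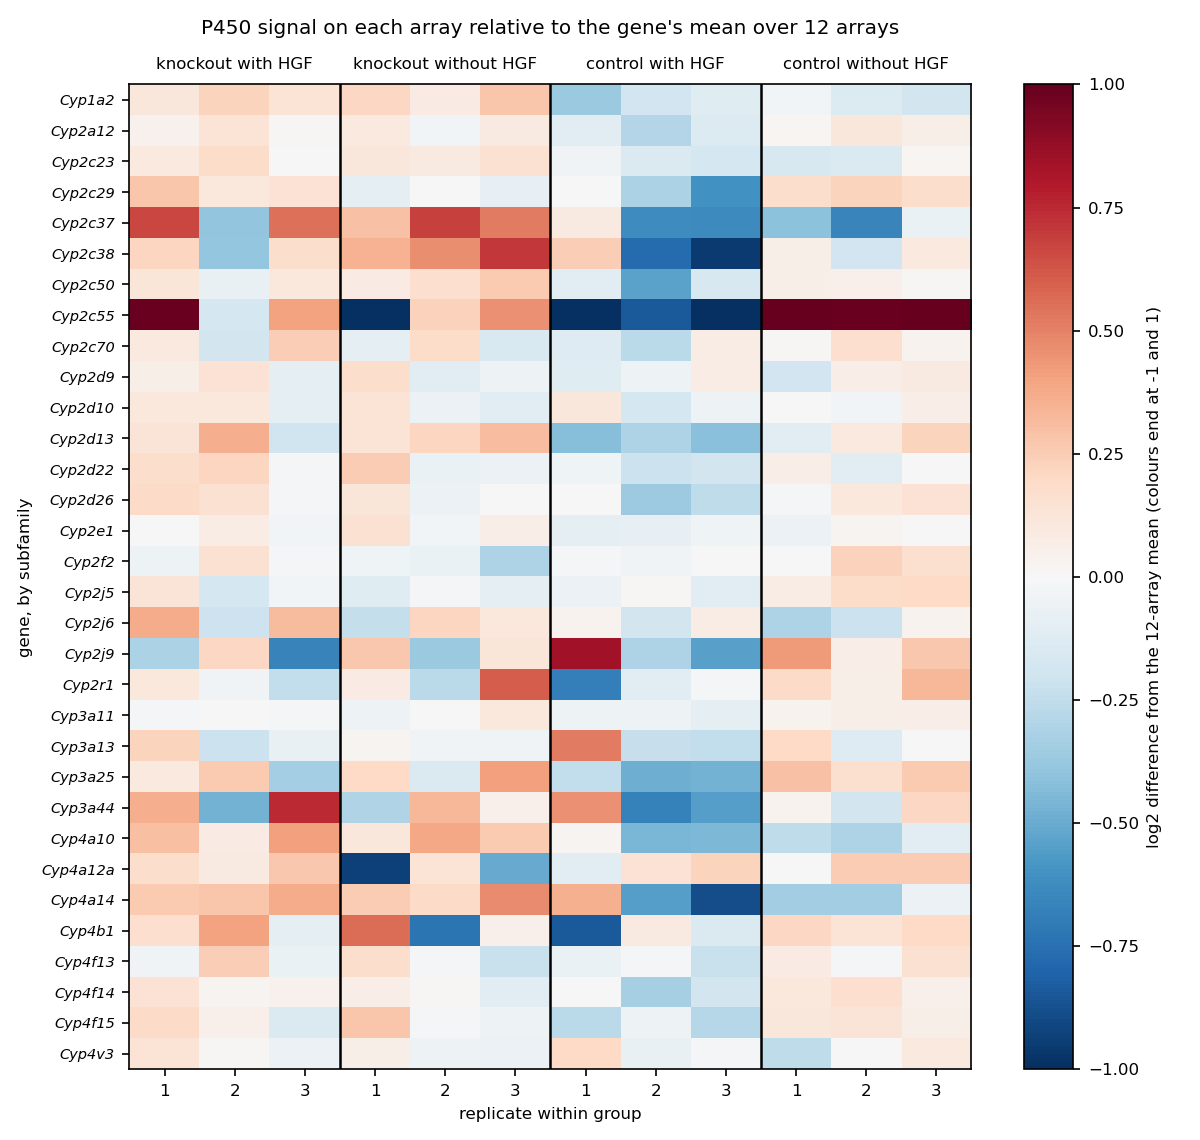
Log2 signal of each of the 32 tested P450 genes on each of the 12 arrays, as the difference from that gene's mean over 12 arrays (rows are genes by subfamily, columns are the 3 replicates of knockouts with HGF, knockouts without HGF, controls with HGF and controls without HGF). Red is above the gene's mean and blue below it, and the colours end at 1 log2 unit, which the row of Cyp2c55 exceeds. Cyp1a2 and Cyp4a10 are red or near their mean on all 6 knockout arrays.

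Promoter sequence is shown for 4 genes that the comparisons turn on: Cyp2c55 and Cyp2c29, whose difference with HGF ran in opposite directions in the genotypes, and Cyp2c37 and Cyp1a2, whose means were higher in knockouts without passing the test. Each window holds the 250 bases before the transcription start in RefSeq, assembly GRCm38.p6, written 5′ to 3′ on the gene's strand, and windows were found for 40 of the 51 genes and 26 of the 32 tested. The windows lie at chr19:39006769-39007018 on the plus strand for Cyp2c55 (Entrez gene 72082), chr19:39286835-39287084 on the plus strand for Cyp2c29 (Entrez gene 13095), chr19:39992174-39992423 on the plus strand for Cyp2c37 (Entrez gene 13096) and chr9:57683656-57683905 on the minus strand for Cyp1a2 (Entrez gene 13077). Capitals mark matches to the motifs searched on both strands.
Cyp2c55: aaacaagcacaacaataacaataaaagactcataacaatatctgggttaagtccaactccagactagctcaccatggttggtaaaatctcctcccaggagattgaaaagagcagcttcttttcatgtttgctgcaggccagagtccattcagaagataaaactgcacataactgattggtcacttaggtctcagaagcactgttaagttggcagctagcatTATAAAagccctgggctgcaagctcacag
Cyp2c29: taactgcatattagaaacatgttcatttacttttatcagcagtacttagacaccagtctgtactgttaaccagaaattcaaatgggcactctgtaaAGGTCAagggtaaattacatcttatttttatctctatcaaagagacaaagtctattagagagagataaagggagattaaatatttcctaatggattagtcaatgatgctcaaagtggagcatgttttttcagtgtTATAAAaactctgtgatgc
Cyp2c37: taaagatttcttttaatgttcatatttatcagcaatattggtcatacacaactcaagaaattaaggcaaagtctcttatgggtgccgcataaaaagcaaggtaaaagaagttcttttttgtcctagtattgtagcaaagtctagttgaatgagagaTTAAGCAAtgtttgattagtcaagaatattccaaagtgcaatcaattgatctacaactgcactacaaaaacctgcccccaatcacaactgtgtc
Cyp1a2: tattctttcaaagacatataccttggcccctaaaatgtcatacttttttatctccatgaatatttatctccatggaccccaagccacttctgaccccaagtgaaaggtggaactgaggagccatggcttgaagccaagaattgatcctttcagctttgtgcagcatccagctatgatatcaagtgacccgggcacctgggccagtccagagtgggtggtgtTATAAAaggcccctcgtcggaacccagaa
The motifs were TATAAA (the TATA box), AGGTCA (a core repeat of nuclear receptor elements), GCGTG (the core of the aryl hydrocarbon receptor element), TTGCNNAA (C/EBP), TTCNNNGAA (STAT) and the NF-kappaB consensus with 1 free position. TATAAA starts 29 bases upstream of the start in both Cyp2c55 and Cyp1a2 and 19 bases upstream in Cyp2c29. It was found in 15 of 46 P450 windows (32.6%), against 12.4% of 32851 windows of all genes. AGGTCA starts 154 bases upstream in Cyp2c29, and was in 26.1% of P450 windows against 14% of all. TTGCNNAA was matched on the minus strand in Cyp2c37, where the printed strand reads TTAAGCAA from 94 bases upstream, and was in 26.1% of P450 windows against 9.56% of all. GCGTG was in 21.7% of P450 windows against 28.2% of all, TTCNNNGAA in 6.52% against 7.02%, and the NF-kappaB consensus in 0 against 0.356%. These are matches of letters and not binding sites. Cyp2c55 is the first gene of the Cyp2c cluster on chromosome 19, an unbroken run of 14 genes, and Cyp2c23 lies beyond 52 other protein-coding genes. The Cyp2c37 and Cyp2c50 windows were identical at 84.3% of aligned columns, gaps included. Cyp2c55 was identical to other Cyp2c windows at 51.7% to 55.3%, near the 53% it had with Cyp1a2. Cyp2c70 was as far from the other Cyp2c windows, at 50% to 53.1%.

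The first comparison asked which of these genes change 2 h after HGF in control livers. Cyp2c55 was the P450 gene that fell, 6.09-fold lower with HGF. It had 5.06, 5.99 and 5.22 in controls with HGF, against 8.27, 7.82 and 7.996 in controls without HGF. All 3 arrays with HGF lay below all 3 without, and the difference was -2.61 (SE 0.45, limma, adjusted p = 0.0452). This was 1 of 32 P450 genes tested, where 0.404% of all 6683 probe sets passed in either direction and 0.105% passed as lower. The call ended when any 1 of the 6 control arrays or the knockout replicate 1 with HGF was left out, with adjusted p up to 0.185, while the difference stayed between -2.89 and -2.42. It ended as well without the filter on low signals (adjusted p = 0.0765).

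Other P450 genes had smaller differences that did not pass adjustment. Cyp3a25, a Cyp3a member of adult liver, had 12.49, 12.25 and 12.26 in controls with HGF, against 13.02, 12.89 and 12.99 in controls without HGF (difference -0.64, SE 0.18, adjusted p = 0.110). Cyp2c29, a CAR target that makes arachidonic acid epoxides, had 12.82, 12.50 and 12.21 in controls with HGF, against 12.99, 13.03 and 12.98 in controls without HGF (difference -0.50, SE 0.14, adjusted p = 0.110). In both genes the groups did not overlap. Cyp2d13, a transcribed pseudogene in RefSeq, had 7.90, 8.01 and 7.90 in controls with HGF, against 8.21, 8.42 and 8.54 in controls without HGF (difference -0.46, SE 0.15, adjusted p = 0.134). Cyp2a12, which hydroxylates steroids and bile acids, had 11.93, 11.75 and 11.91 in controls with HGF, against 12.06, 12.16 and 12.10 in controls without HGF (difference -0.24, SE 0.09, adjusted p = 0.181). When the spread was estimated from the 6 control arrays alone, 12% of all probe sets passed, and Cyp3a25 (adjusted p = 0.0120) and Cyp2d13 (adjusted p = 0.0488) passed beside Cyp2c55. When both knockout replicate 2 arrays were left out, 8.16% passed, and Cyp3a25 (adjusted p = 0.0256) passed beside Cyp2c55.

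The direction was shared across subfamilies. Of the 32 genes, 30 were lower in controls with HGF, against 64.4% of all tested probe sets, and the median difference was -0.17, against -0.09 over all. The count was 30 with arrays centred on their median, with no filter and with a pseudocount of 16, and 29 with array weights. It was less steady when 1 array was left out. Without the control replicate 3 with HGF, 6 of these genes turned higher: Cyp2c23, Cyp2c37, Cyp2j9, Cyp3a13, Cyp4a10 and Cyp4a14. Without the control replicate 2 with HGF, 4 did: Cyp2c37, Cyp2d10, Cyp3a13 and Cyp4a10. Each other array left out changed 0 to 3 signs. With all arrays, all 7 Cyp2c genes were lower (median -0.31, range -2.61 to -0.01), as were all 5 Cyp2d (median -0.13) and 4 of 4 Cyp3a (median -0.20). So were 3 of 3 Cyp4f genes (median -0.28). The 3 Cyp4a genes were lower too, but their median of -0.08 was no lower than the -0.09 over all probe sets. Cyp4a10 differed by -0.06 (SE 0.15), Cyp4a12a by -0.08 (SE 0.23) and Cyp4a14 by -0.11 (SE 0.26). In the fit of all arrays Cyp2j6 and Cyp4v3, a fatty acid hydroxylase, were higher, by 0.13 and 0.09. At an unadjusted p under 0.05, 9 genes were lower and 0 higher, where 19.6% of all probe sets stood in either direction and 10.6% as lower. They were Cyp2c55, Cyp3a25, Cyp2c29, Cyp2d13, Cyp2a12, Cyp4f14, Cyp2c50, Cyp2d26 and Cyp4f15. The count was 4 without the control replicate 2 without HGF (13.7% of all), and 5 without the control replicate 3 without HGF (13.1%) or the control replicate 2 with HGF (15.3%). The 2 groups did not overlap in 12 genes, all lower, where 23.7% of all probe sets were lower without overlap and 14.1% higher. Those were Cyp2a12, Cyp2c29, Cyp2c50, Cyp2c55, Cyp2d13, Cyp2j5, Cyp2r1, Cyp3a11, Cyp3a25, Cyp4b1, Cyp4f14 and Cyp4f15, and without the control replicate 1 with HGF the count was 21, where 52% of all probe sets did not overlap, against 37.7% with all arrays. In Cyp2r1, the vitamin D 25-hydroxylase, the values were 6.40, 6.97 and 7.07 in controls with HGF, against 7.27, 7.14 and 7.41 in controls without HGF. In Cyp4b1, another fatty acid hydroxylase, they were 6.68, 7.61 and 7.38 in controls with HGF, against 7.73, 7.66 and 7.72 in controls without HGF. Cyp3a11 differed by -0.12, with values of 13.15 to 13.20 in controls with HGF and 13.28 to 13.31 in controls without HGF.

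**Figure D2:**
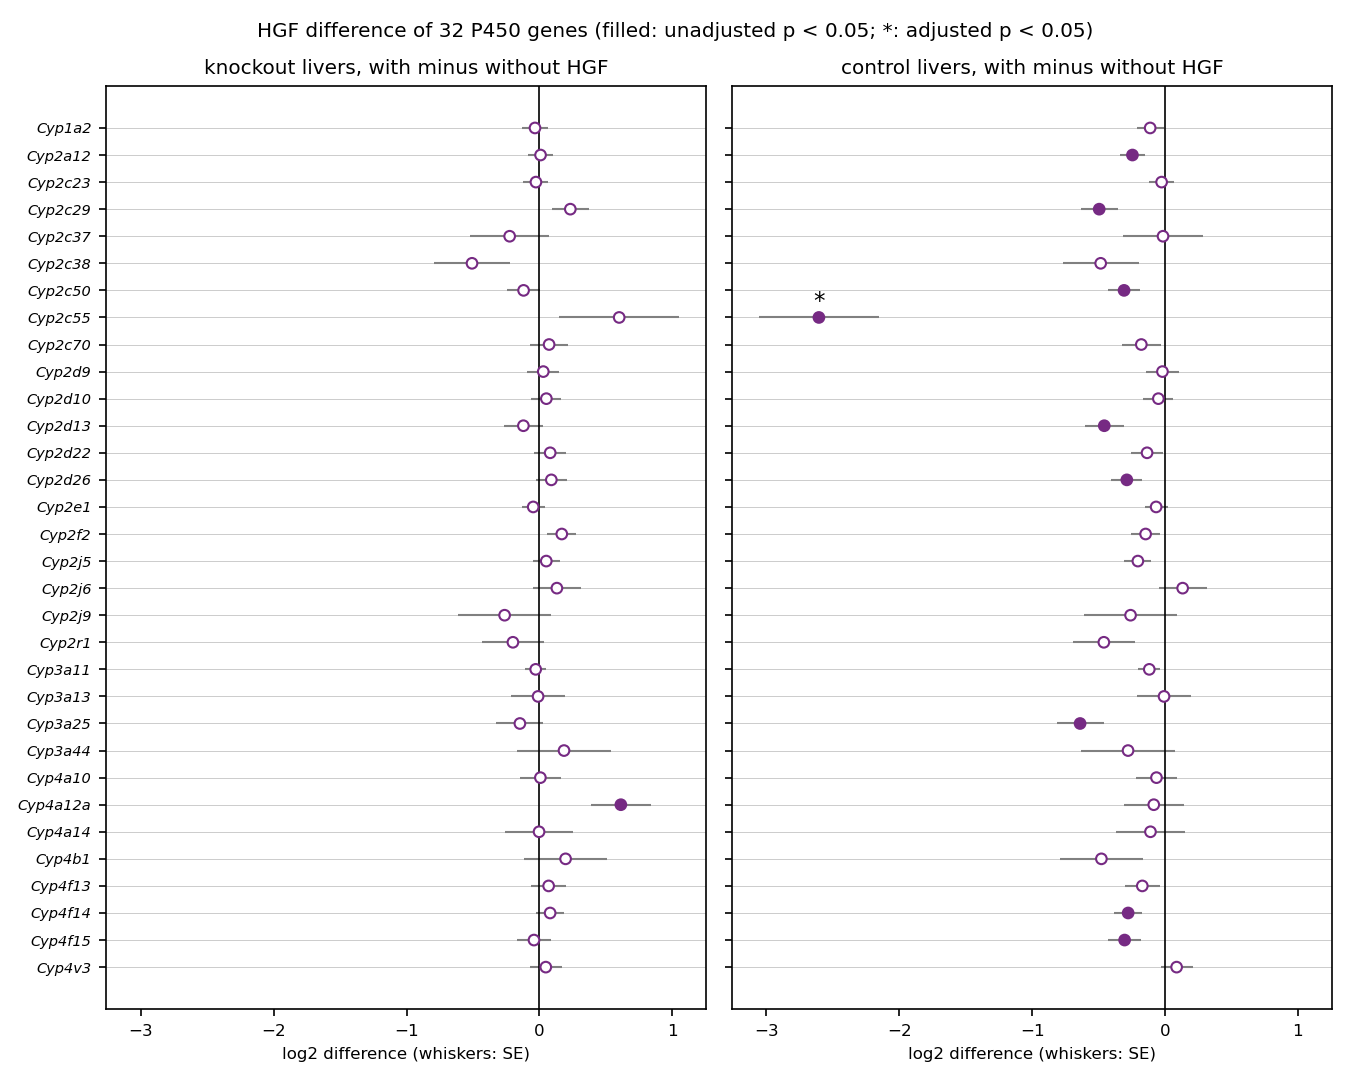
Difference in log2 signal with HGF minus without HGF for the 32 tested P450 genes, in knockouts on the left and in controls on the right (points are limma estimates, whiskers the SE, filled points an unadjusted p under 0.05). In controls 30 of 32 points lie below 0 and Cyp2c55 stands at -2.61, whereas in knockouts 18 lie above 0 and 14 below.

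Genes that supply or regulate P450 enzymes were counted beside them. All gene lists in this report were chosen with earlier results of these data known. Of 22 regulators tested, 1 passed the test, Ahr, the aryl hydrocarbon receptor, where 0.404% of all probe sets passed. It had 7.30, 7.35 and 7.21 in controls with HGF, against 6.73, 6.72 and 6.54 in controls without HGF (difference 0.62, SE 0.10, adjusted p = 0.0418). The call ended when any 1 control without HGF, or the control replicate 2 or 3 with HGF, was left out, since 0 of all probe sets then passed. Cyp1a2, a target of Ahr, differed by -0.11 in the same comparison, with overlapping groups. Nr0b2, the corepressor SHP, differed by -4.20 (SE 1.12, adjusted p = 0.103), Nr1i3, which encodes CAR, by -0.32, and Nr1i2, which encodes PXR, by -0.31, all short of the threshold. Of 16 genes for electron transfer and haem supply, 0 passed and 14 were lower, against 64.4% of all probe sets. The median was -0.19, against -0.09 over all. Their mean log2 signal overlapped, at 9.38 to 9.52 in controls with HGF and 9.40 to 9.48 in controls without HGF. Of 8 tested P450 genes of other families, 0 passed and 5 were lower, near the 64.4% of all probe sets. Cyp7a1, the rate-limiting enzyme of bile acid synthesis, differed by -1.36 (SE 1.09).

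Inflammatory genes moved with the same groups. In controls with HGF all 15 inflammatory cytokine targets were higher (median difference 3.93), as were all 25 acute phase genes (median 1.56). In the fit of all 12 arrays 0 of either list passed adjustment. That fit takes its spread from the knockout groups as well. Within them the inflammatory mean ran from 4.33 to 8.69 with HGF and from 4.41 to 9.11 without. Summed intensity of the inflammatory list was 15800 to 24194 in controls with HGF and 737 to 881 in controls without HGF. Neutrophil markers summed to 790 to 2858 in controls with HGF and 53.5 to 111 in controls without HGF, from 9 genes of which 2, S100a8 and S100a9, passed the filter, while Elane, Mpo and Camp stayed below it. Of 11 endothelial markers tested, 10 were lower in controls with HGF, against 64.4% of all probe sets, and 0 passed. Summed intensities of the 12 endothelial markers on the array were 1388 to 1428 in controls with HGF and 1800 to 1862 in controls without HGF. The part of these lists in the P450 differences was not tested. Array by array, Cyp3a25 had 12.40 on the knockout replicate 3 with HGF and 12.59 on the knockout replicate 2 without HGF, where the inflammatory mean was 8.69 and 9.11. It had 12.84 and 13.00 on the knockout replicates 1 and 2 with HGF, and 12.93 and 13.15 on the knockout replicates 1 and 3 without HGF. Cyp2c55 had 7.82, 6.65 and 7.24 in knockouts with HGF, where that mean was 5.80, 4.33 and 8.69. It had 5.56, 7.06 and 7.28 in knockouts without HGF, where that mean was 4.91, 9.11 and 4.41. These are 2 of the 32 genes, and whether either follows the inflammatory level was not tested.

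**Figure D3:**
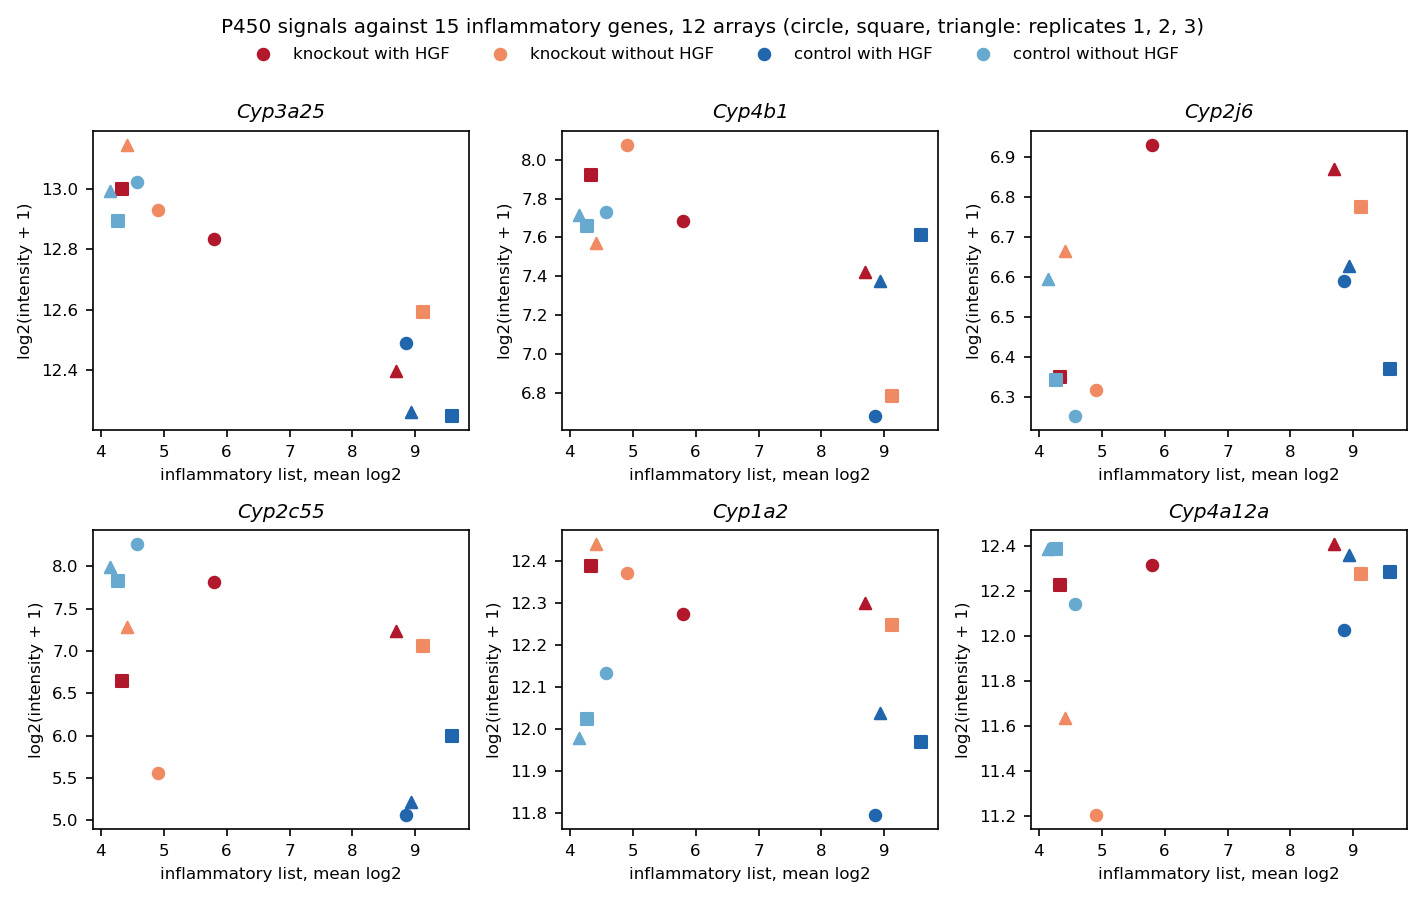
Log2 signal of 6 P450 genes (vertical axes) against the mean log2 signal of 15 inflammatory cytokine targets (horizontal axes) on each of 12 arrays, coloured by group, with circles, squares and triangles for replicates 1, 2 and 3. Cyp3a25 has 12.40 on the knockout replicate 3 with HGF and 12.59 on the knockout replicate 2 without HGF, which lie to the right beside the 3 controls with HGF at 12.25 to 12.49, whereas Cyp1a2 splits by genotype.

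In livers labelled as Met knockouts, the same HGF treatment moved 0 of 32 P450 genes past the threshold, and 0% of all probe sets passed (limma). Cyp2c55 had 7.82, 6.65 and 7.24 in knockouts with HGF, against 5.56, 7.06 and 7.28 in knockouts without HGF (difference 0.60, SE 0.45, adjusted p = 1.00). The groups overlapped. Cyp2c29 had 13.09, 12.91 and 12.96 in knockouts with HGF, against 12.72, 12.81 and 12.73 in knockouts without HGF (difference 0.23, SE 0.14, adjusted p = 1.00), and there the arrays with HGF lay above those without. Of the 32 genes 18 were higher with HGF, against 48.7% of all probe sets, and the median difference was 0.02. At an unadjusted p under 0.05 stood 1 gene, against 1.9% of all probe sets. It was Cyp4a12a, a male-biased enzyme that makes 20-HETE from arachidonic acid, with 12.31, 12.23 and 12.41 in knockouts with HGF, against 11.20, 12.27 and 11.64 in knockouts without HGF (difference 0.61, SE 0.23, adjusted p = 1.00). Without overlap of the groups, Cyp2c29 was higher and Cyp2c38, another arachidonic acid epoxygenase, lower, where 2.56% of all probe sets were higher in that way and 1.24% lower.

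Leaving out both knockout replicate 2 arrays altered that comparison. It then called 4.16% of all probe sets and 1 P450 gene, Cyp4a12a, higher with HGF by 0.94 (SE 0.18, adjusted p = 0.0289). Cyp2c55 then differed by 1.11 (SE 0.52) and Cyp3a25 by -0.42 (SE 0.17), neither past the threshold. In this fit, with 2 arrays a group, 16 of the 32 genes had groups that did not overlap, as did 50.4% of all probe sets.

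Knockouts and controls were next compared after HGF. None of the 32 P450 genes passed adjustment (limma), where 0.015% of all probe sets did, while 14 were higher and 0 lower at an unadjusted p under 0.05 (9.58% of all probe sets in either direction, 5.3% as higher). Cyp2c55 had 7.82, 6.65 and 7.24 in knockouts with HGF, against 5.06, 5.99 and 5.22 in controls with HGF (difference 1.81, SE 0.45, adjusted p = 0.383). Cyp1a2, which oxidises caffeine and aromatic amines, had 12.27, 12.39 and 12.30 in knockouts with HGF, against 11.79, 11.97 and 12.04 in controls with HGF (difference 0.39, SE 0.10, adjusted p = 0.409). Cyp4a10, a fatty acid hydroxylase and PPAR-alpha target, had 12.21, 11.99 and 12.32 in knockouts with HGF, against 11.94, 11.45 and 11.47 in controls with HGF (difference 0.56, SE 0.15, adjusted p = 0.425). In these 3 genes the groups did not overlap. Cyp2c29 differed by 0.48 (SE 0.14, adjusted p = 0.474) and Cyp2d13 by 0.48 (SE 0.15, adjusted p = 0.480). The other 9 were Cyp2d26, Cyp2a12, Cyp4a14, Cyp2c50, Cyp3a25, Cyp4f14, Cyp2d22, Cyp2c23 and Cyp2c37, with differences of 0.21 to 0.67. When the spread was estimated from the 6 arrays with HGF alone the count was 5, against 3.97% of all probe sets as higher, and without both knockout replicate 2 arrays it was 9, against 4.71%. It was also 9 without any 1 of the controls without HGF (4.34% to 4.43%), 6 without the control replicate 2 with HGF (4.13%), 7 without the control replicate 3 with HGF (5.25%) and 7 without the knockout replicate 1 with HGF (3.16%). In sign, 29 of 32 genes were higher in knockouts with HGF, against 56.8% of all probe sets, with a median of 0.24 against 0.04, and the count was 29 to 31 under the other scalings. All 7 Cyp2c, 5 Cyp2d, 3 Cyp4a and 3 Cyp4f genes were higher. The groups did not overlap in 12 genes, all higher, where 8.81% of all probe sets were higher without overlap and 6.08% lower, and without the control replicate 1 with HGF the count was 19, where 26.3% of all probe sets did not overlap, against 14.9% with all arrays. The controls with HGF are shared with the first comparison, so the sets of genes are not independent.

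Without HGF, the knockout difference ran in both directions. None of the 32 passed adjustment (limma), where 0.0599% of all probe sets did. At an unadjusted p under 0.05 stood 4 higher and 4 lower genes, where 10.8% of all probe sets stood in either direction. These 8 genes became 3 without the control replicate 2 without HGF (7.09% of all), 4 without the knockout replicate 3 without HGF (9.61%), and 5 without the control replicate 3 without HGF (8.29%) or the knockout replicate 1 without HGF (9.65%). Cyp4a10 had 12.03, 12.30 and 12.17 in knockouts without HGF, against 11.65, 11.60 and 11.80 in controls without HGF (difference 0.48, SE 0.15, adjusted p = 0.282). Cyp2c37 had 10.91, 11.30 and 11.14 in knockouts without HGF, against 10.21, 9.96 and 10.55 in controls without HGF (difference 0.88, SE 0.30, adjusted p = 0.307). Cyp1a2 differed by 0.31 (SE 0.10, adjusted p = 0.290) and Cyp2c23 by 0.21. Cyp2c55 was lower, with 5.56, 7.06 and 7.28 in knockouts without HGF, against 8.27, 7.82 and 7.996 in controls without HGF (difference -1.39, SE 0.45, adjusted p = 0.289). Cyp4a12a differed by -0.60 (SE 0.23, adjusted p = 0.364), Cyp2f2, a periportal enzyme that activates naphthalene, by -0.27 and Cyp2j5 by -0.23. The groups did not overlap in 7 higher genes, where 6.61% of all probe sets were higher in that way, namely Cyp1a2, Cyp2c23, Cyp2c37, Cyp2c38, Cyp2c50, Cyp4a10 and Cyp4a14. They did not overlap in 4 lower genes either, Cyp2c29, Cyp2c55, Cyp2f2 and Cyp2j5, where 12.1% were lower. Without both knockout replicate 2 arrays, 2.69% of all probe sets passed, and with them 1 P450 gene, Cyp4a12a, at -0.89 (SE 0.16, adjusted p = 0.0298). Dbp, a clock output factor that varies over the day, had 10.72, 2.92 and 10.72 in knockouts without HGF, against 2.61 to 7.50 in all controls. The 17 clock output factors on the array summed to 3629, 1098 and 3383 in knockouts without HGF and 1528, 4220 and 1042 in knockouts with HGF. They summed to 948 to 1615 in all controls. The replicate 2 arrays thus ran against the other knockouts here as well. The part of these factors in the P450 differences was not tested.

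**Figure D4:**
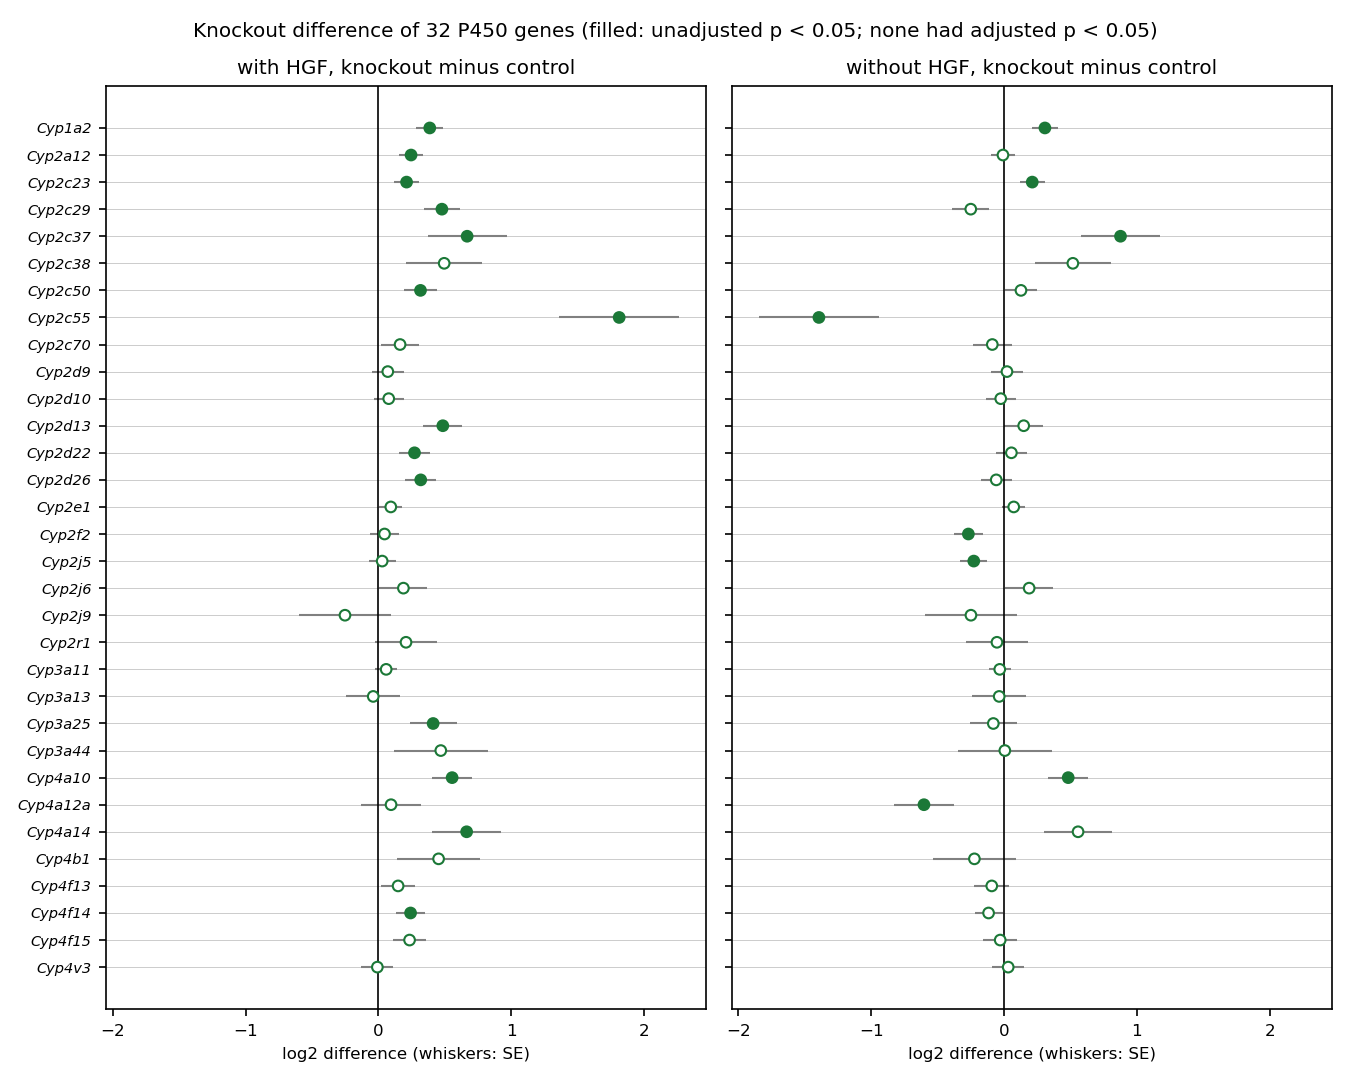
Difference in log2 signal, knockout minus control, for the 32 tested P450 genes, with HGF on the left and without HGF on the right (points are limma estimates, whiskers the SE, filled points an unadjusted p under 0.05). With HGF 29 of 32 points lie above 0, without HGF 14 do, and Cyp2c55 changes side, at 1.81 with HGF and -1.39 without.

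Averaged over both HGF states, the knockouts had higher Cyp1a2, Cyp4a10 and Cyp2c37 signals that missed the threshold. The averaged difference was 0.35 for Cyp1a2 (SE 0.07, adjusted p = 0.157), 0.52 for Cyp4a10 (SE 0.11, adjusted p = 0.159) and 0.77 for Cyp2c37 (SE 0.21, adjusted p = 0.253). In Cyp1a2 and Cyp4a10 all 6 knockout arrays lay above all 6 control arrays, where 0.374% of all probe sets were higher in that way and 0.374% lower. Cyp4a14, a relative of Cyp4a10 and another PPAR-alpha target, differed by 0.61 (SE 0.18, adjusted p = 0.315). It had 11.88, 11.90 and 11.99 in knockouts with HGF and 11.87, 11.81 and 12.10 in knockouts without HGF, against 11.98, 11.07 and 10.74 in controls with HGF and 11.27, 11.27 and 11.56 in controls without HGF. Without the control replicate 1 with HGF, its difference was 0.79 and its adjusted p 0.0355. None of the 32 genes passed in the limma fit of all 12 arrays, where 0.015% of all probe sets did. At an unadjusted p under 0.05 stood 8 genes, all higher, against 9.38% of all probe sets in either direction and 4.47% as higher. These were the genes above with Cyp2c23 (0.21), Cyp2d13 (0.32), Cyp2c50 (0.22) and Cyp2c38 (0.51). In sign 27 of 32 were higher in the average, against 50.2% of all probe sets, with all 7 Cyp2c and all 5 Cyp2d genes among them. That did not hold in each HGF state: 29 of 32 were higher with HGF and 14 without. Without HGF 4 Cyp2c genes were higher and 3 lower, and 3 Cyp2d genes were higher and 2 lower. Cyp2c55 and Cyp2c29 were higher with HGF and lower without. The average shares its controls with HGF with the first comparison. In the average Cyp4a12a stood apart from the other Cyp4a genes at -0.25 (SE 0.16).

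Cyp1a2 is, as background, an enzyme of the pericentral zone of the liver lobule. Of the 32 P450 genes 27 were higher in knockouts averaged over HGF (29 with HGF and 14 without), with a median of 0.11. In that average Cyp2c29 differed by 0.11, but Cyp2e1 by 0.08 and Cyp3a11 by 0.01. Of 13 tested pericentral genes outside these P450 families, 12 were higher in that comparison, against 50.2% of all probe sets. Of the 13, 7 had an unadjusted p under 0.05 (limma), against 9.38% of all probe sets in either direction, and 0 passed adjustment. The median difference was 0.40. Slc1a2, a glutamate transporter, differed by 1.39 (SE 0.22, adjusted p = 0.0961), and Glul, glutamine synthetase, by 0.38 (SE 0.08, adjusted p = 0.157). Summed intensity of the 16 pericentral genes on the array, tested or not, was 28636 to 35237 in knockouts with HGF and 31832 to 36094 in knockouts without HGF. It was 24109 to 25773 in controls with HGF and 27523 to 29381 in controls without HGF. Of 11 tested periportal genes, 3 were higher and 8 lower, with a median of -0.07. Of 8 tested stellate cell and matrix markers, all 8 were higher in knockouts without HGF, against 45.1% of all probe sets, and 0 passed. Summed intensities of the 13 such markers on the array were 2372 to 2858 in knockouts without HGF and 1752 to 2089 in controls without HGF. The part of these lists in the P450 differences was not tested.

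**Figure D5:**
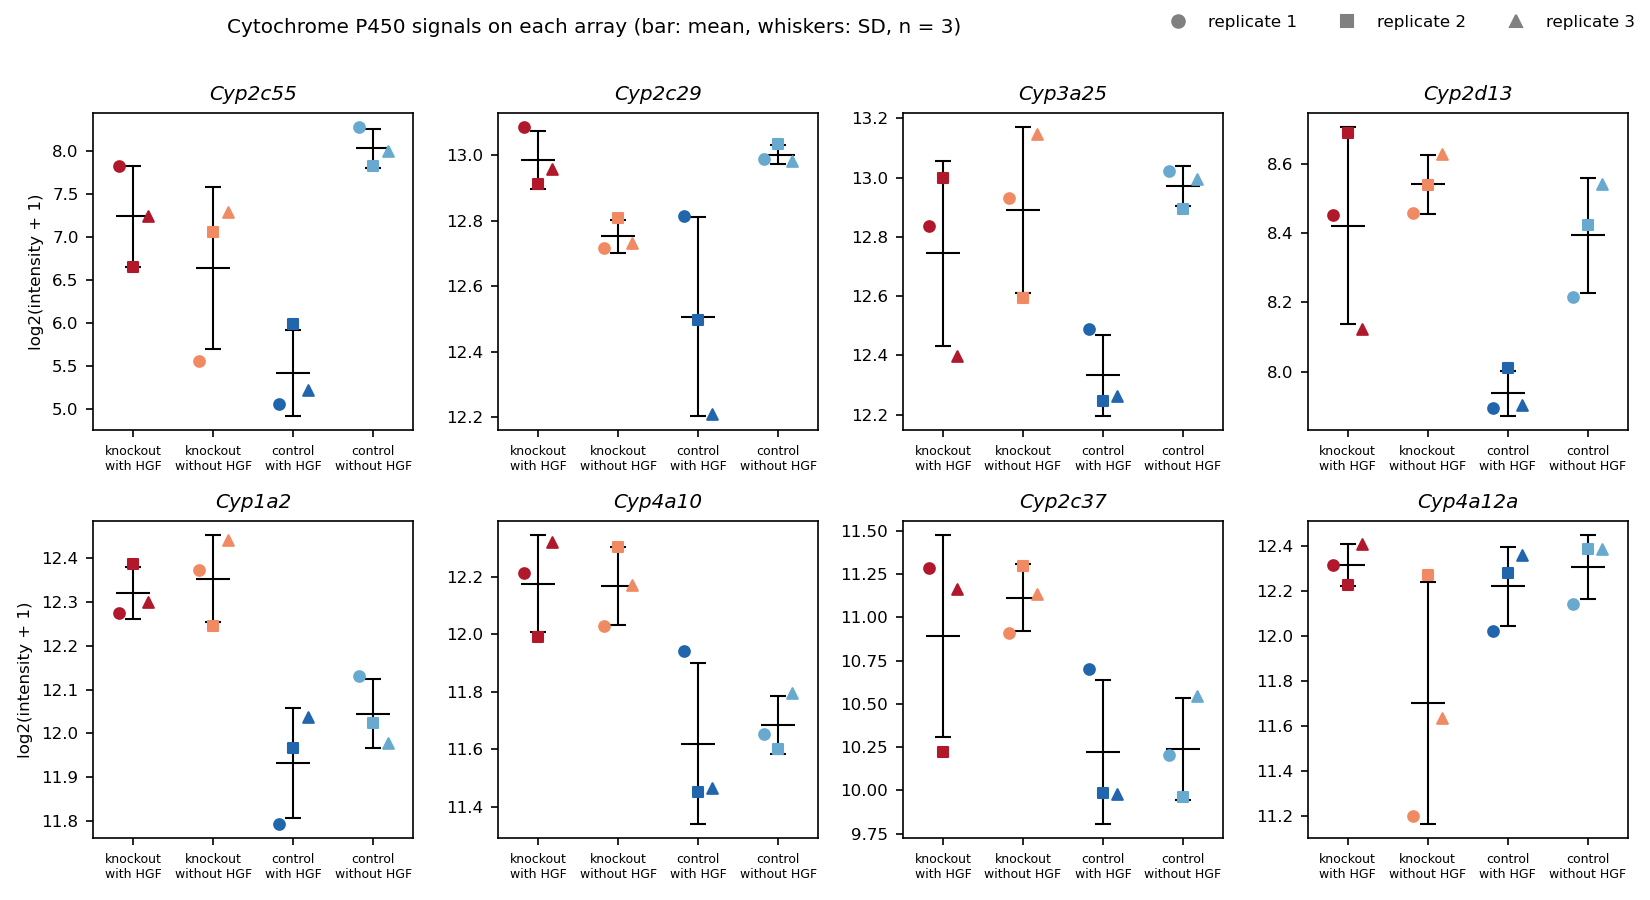
Log2(intensity + 1) of 8 P450 genes on each array (points, shaped by replicate), with the mean as a bar and the SD as whiskers, n = 3 arrays in each group, and a vertical axis of its own for each gene that does not start at 0. Cyp2c55 is lowest in controls with HGF at 5.42 ± 0.50 and highest in controls without HGF at 8.03 ± 0.23, and in Cyp1a2 and Cyp4a10 the 6 knockout arrays lie above the 6 control arrays.

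The last comparison tested whether the HGF difference itself differed between genotypes. None of the 32 P450 genes passed adjustment (limma), and 0% of all probe sets did. Cyp2c55 had the P450 family's smallest p, with an HGF difference that was 3.21 higher in knockouts than in controls (SE 0.64, adjusted p = 0.211). For Cyp2c29 it was 0.73 higher (SE 0.19, adjusted p = 0.307). Cyp4f14, a leukotriene B4 hydroxylase, had 0.36 (SE 0.15, adjusted p = 0.441), Cyp2d26 0.38 (SE 0.16, adjusted p = 0.453) and Cyp4a12a 0.70 (SE 0.32, adjusted p = 0.461). At an unadjusted p under 0.05 stood 4 genes, all higher, against 10.8% of all probe sets in either direction and 5.79% as higher. There were 2 such genes without the control replicate 2 without HGF (3.95% as higher), the control replicate 2 with HGF (5.03%), the control replicate 3 with HGF (5.7%) or the knockout replicate 1 with HGF (3.82%). In sign 25 of 32 were higher, against 60.5% of all probe sets, and 30 were with arrays centred on their median. With the labels as given, the Cyp2c29 HGF groups did not overlap in either genotype and ran in opposite directions, which held for 0.928% of all probe sets. In Cyp2c29 and Cyp2c55 the knockout and control groups did not overlap in either HGF state and ran in opposite directions, which held for 1.57%. Cyp2c38 had 9.05, 8.45 and 9.01 in knockouts with HGF, 9.19, 9.30 and 9.55 in knockouts without HGF, 9.08, 8.07 and 7.88 in controls with HGF and 8.90, 8.65 and 8.94 in controls without HGF.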

How the data were processed

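Liver RNA of 12 mice was measured on Affymetrix arrays, 1 array per mouse. The deposited values are intensities on a linear scale, summarised with GCRMA per the submitters' processing notes, which subtracts an estimate of background and compresses dim probe sets; further steps are not given in the sources used here. After 64 array controls were set aside from 16539 probe sets, 16475 were left. The platform annotation gave 1 symbol to 15780 and none to 695. Groups and replicate numbers came from the sample titles.

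Values were put on the log2(intensity + 1) scale, which understates changes of dim genes, and kept where they reached 4 on at least 3 arrays (6683 probe sets). limma 3.58.1 in R 4.3.3 was fitted to all of them, with 4 group means and 8 residual degrees of freedom. P-values are two-sided, and adjusted by Benjamini-Hochberg over all 6683; the threshold was 0.05. The number of arrays limits the precision: the median SE was 0.18 for a difference of 2 groups. The model was tested on simulated data. In each comparison the genes that passed and the 5 with the smallest p are given in full, with counts by subfamily. The members, the gene lists and the alternatives were chosen with earlier results of these data known. Alternatives were no filter, a pseudocount of 16, a replicate block, the groups of a comparison alone, array weights, median centring, each array left out, and both knockout replicate 2 arrays left out.

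Replicate numbers are shared between groups, but deviations of same-numbered arrays correlated between -0.83 and 0.26, so they were not taken as pairs. Promoter windows came from RefSeq (GRCm38.p6). Symbols of all 51 genes matched RefSeq by Entrez gene.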

Additional observations from a re-analysis of the deposited data

Results flagged for a closer look

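In Cyp2c29 all 3 knockouts with HGF lay above the 3 knockouts without HGF, while all 3 controls with HGF lay below the 3 controls without HGF, and its knockout difference likewise turned with HGF. The test of the HGF difference in Cyp2c29 gave 0.73 higher in knockouts than in controls on the log2 scale and missed the threshold (limma, adjusted p = 0.307). Its pattern rests on the labels of the knockout replicate 2 arrays, 12.91 with HGF and 12.81 without HGF. With those labels exchanged, its knockout groups with and without HGF would overlap. Whether they were exchanged was not tested. In Cyp2c55 the knockouts lay above all controls with HGF and below all controls without HGF, and the test of the HGF difference, knockouts minus controls, gave 3.21 (adjusted p = 0.211). No cause was tested for either.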

How the results depend on the processing

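For the 5 P450 genes with the smallest p in each comparison, 529 recomputed values stayed on their side of the threshold, 22 passed it newly, 9 no longer passed and 0 changed sign. Over all 32 genes, 206 of 3584 recomputed differences changed sign, all of them for genes within 0.26 of 0 in the fit of all arrays. Counts moved more. For HGF in controls, 1 P450 gene passed with all arrays, against 0 without the filter, 0 with a replicate block (Cyp2c55 adjusted p = 0.290), 3 with the control groups alone, 9 with array weights and 2 without both knockout replicate 2 arrays; leaving out 1 array gave 0 to 1. Over all probe sets that comparison called 27, against 13 without the filter, 41 with a pseudocount of 16, 0 with the block, 801 with the control groups alone, 1279 with weights and 0 to 317 with 1 array left out. With array weights 9 genes passed for the knockout with HGF (4.11% of all probe sets), 5 for the averaged knockout difference (3.62%), 2 for the knockout without HGF (Cyp2c55 and Cyp4a12a, both lower; 2.24%) and 2 for the difference between genotypes in the HGF effect (Cyp2c55 and Cyp2c29; 1.56%), where the fit with equal weights called 0 in each. At an unadjusted p under 0.05, array weights gave 14 genes for HGF in controls (34.4% of all probe sets), 4 for HGF in knockouts (11.7%), 14 higher and 1 lower for the averaged difference (24.6%) and 9 for the difference between genotypes (20.9%). Leaving out 1 array gave 0 to 1 passing genes for the averaged difference, from Cyp4a14. Without both knockout replicate 2 arrays 1 gene passed for HGF in knockouts and 1 for the knockout without HGF. When 1 array was left out, genes whose groups did not overlap numbered 12 to 21 for HGF in controls (37.7% to 52% of all probe sets). For HGF in knockouts they numbered 2 to 7, with 10.2% of all probe sets beside the 7, while the highest share, 21%, stood beside 3 genes. For the knockout with HGF they numbered 12 to 19, with 26.3% beside the 19, while the highest share, 39.6%, stood beside 16 genes. Such genes for HGF in knockouts numbered 5 without the filter (6.6%) and 16 without both replicate 2 arrays (50.4%). With 3 arrays a group and a median SE of 0.18, small differences stay below the threshold. The causes were not tested, and the block changed no other call of a P450 gene.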
